A study of Mus musculus with 20 samples.

Results

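The genes described here encode laminin chains, nidogens and perlecan, the glycoproteins that together with collagen IV make up the basement membrane. They were taken by name as 10 of the 55866 genes of the count table: the laminin alpha chains Lama2, Lama3, Lama4 and Lama5, the beta chains Lamb1 and Lamb2, the gamma chain Lamc1, the nidogens Nid1 and Nid2, and Hspg2, which encodes perlecan. RiboTagEC mice carry Rpl22 HA/HA and Cdh5 CreERT2, so that tamoxifen places an HA tag on ribosomes of cells in which the Cdh5 promoter is active, and anti-HA immunoprecipitation (IP) recovers the RNA bound to them. All mice were female C57BL/6J, received tamoxifen (75 mg/kg, 5 days) at 3 weeks of age and were implanted at 8 weeks with Py8119 cells, a murine mammary carcinoma line, in the mammary fat pad. Mice then received either 6-3-A6, an antibody that blocks Notch4, at 25 mg/kg or control mouse IgG, both given 2 times weekly for 10 days. Treatment began at a tumor volume of 30 mm3 according to the sample protocols and of 50 mm3 according to the design text. From each of 10 tumors, 5 per treatment, the whole homogenate (input) and the IP were sequenced, which gave 20 libraries.

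Laminins are trimers of an alpha, a beta and a gamma chain that polymerize at the cell surface and bind integrins and dystroglycan. The alpha chain sets much of the tissue specificity. Vessels are known for laminins with the alpha4 and alpha5 chains, skeletal muscle and peripheral nerve for alpha2, and skin and other epithelia for alpha3. Nidogens link the laminin network to collagen IV, and perlecan is a heparan sulfate proteoglycan that holds growth factors in the membrane.

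In the count table (GRCm39), Lama4 lies at chr10:38841511-38986184 and Lama2 at chr10:26856032-27495754, Nid1 at chr13:13612136-13686854, Nid2 at chr14:19801333-19861855 and Lama5 at chr2:179818166-179867652. Lamb1 lies at chr12:31315233-31379643, Lamb2 at chr9:108356935-108367729, Lamc1 at chr1:153094668-153208532, Hspg2 at chr4:137196080-137297941 and Lama3 at chr18:12466876-12716070. Each gene was counted over its whole span, exons and introns together. The span of Nid2 shares 437 bases with Rtraf on the opposite strand, which had 82066 counts over the 20 libraries against 30632 for Nid2, and how shared reads were assigned is not given in the sources used here. Lama2 shares 2001 bases with Gm48084, which had 26 counts.

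Totals ranged from 11881214 to 26728205 counts on genes per library. The endothelial markers Pecam1 and Cdh5 were higher in IP than in the input of the same tumor in 10 of 10 tumors each, with a median log2 difference of 4.26 and 4.35. All 17 markers of an endothelial list rose in IP against input. A pair of IP libraries, 6-3-A6 IP 2 and control IgG IP 4, had the lowest endothelial content. There the summed level of the list was 1267 and 1565 CPM (counts scaled to library totals adjusted by TMM factors). The medians of the 6-3-A6 IP and control IgG IP groups were 5097 and 5018 CPM. The library 6-3-A6 input 4 stood apart from the other inputs, with 38.2% of its counts on mitochondrial genes against 6.90% to 17.2% in the other 9. For IP against input, for the alpha chain shares and for some of the genes in the treatment comparisons, values without these libraries or their tumors are also given.

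Promoter sequences from RefSeq (GRCm38.p6) were matched for 6 of the 10 genes. Those of Nid1, the gene with the highest IP over input ratio among the 6, and of Lama5, a vascular alpha chain that was not called in that comparison, are shown for the contrast between both genes. Each covers the 190 bases from 250 to 61 bases before the annotated start, at chr13:13437352-13437541 (plus strand) for Nid1 and chr2:180225920-180226109 (minus strand) for Lama5. Capitals mark GGAA or its reverse complement TTCC, the core letters bound by ETS factors, a family that includes endothelial regulators such as Erg.
Nid1: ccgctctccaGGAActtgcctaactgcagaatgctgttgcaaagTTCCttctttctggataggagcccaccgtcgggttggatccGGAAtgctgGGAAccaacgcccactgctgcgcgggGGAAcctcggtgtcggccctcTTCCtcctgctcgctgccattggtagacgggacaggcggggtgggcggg
Lama5: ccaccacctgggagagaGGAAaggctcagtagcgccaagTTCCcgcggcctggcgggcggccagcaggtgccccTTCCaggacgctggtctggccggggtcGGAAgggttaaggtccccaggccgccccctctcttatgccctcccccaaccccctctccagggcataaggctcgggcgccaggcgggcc
The Nid1 window held 6 such matches and the Lama5 window 4, while those of Lamb1 and Hspg2 held 2 and 1. At least 1 match was present in 87.8% of the 27025 windows of the same length, with a median of 2, so the letters are common, and a match is a description and not a site. The GC box GGGCGG, on either strand, occurred once in Nid1 and 2 times in Lama5, and in 22.8% of all windows. The motifs TGANTCA and TATAAA occurred in 5.39% and 9.07% of all windows and were not found in these.

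To determine which of the genes were enriched in endothelial ribosome-bound RNA over the whole tumor, IP was compared with input over all 20 libraries. The ratio is relative to input, so a gene that was not called can still be present in IP. Input was not limited to ribosome-bound RNA, and the part of this in the ratios was not tested. Of the 10 genes, 7 rose in IP and 0 fell, where 41.2% of the 13582 genes tested were called, 19.8% higher and 21.4% lower (edgeR quasi-likelihood test, Benjamini-Hochberg adjusted p threshold 0.05). The median log2 fold change was 0.73 over the 10 genes and -0.05 over all genes tested. The nidogens and Lama4 had the largest changes, at 5.3-fold to 6.8-fold, and Lamc1, Hspg2, Lamb2 and Lamb1 rose by 1.5-fold to 2.0-fold. Lama3, Lama5 and Lama2 were not called. Without control IgG tumor 4 and 6-3-A6 tumors 2 and 4, left out together after the data were seen, the log2 fold changes were 2.93 for Nid2, 2.73 for Nid1, 2.56 for Lama4, 1.11 for Lamc1, 0.84 for Hspg2, 0.71 for Lamb1 and 0.67 for Lamb2, all still called. Lama3 was then called as well (0.91, adjusted p = 0.0161, edgeR), while Lama2 (-0.30) and Lama5 (-0.27, adjusted p = 0.244) were not.

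**Figure D1:**
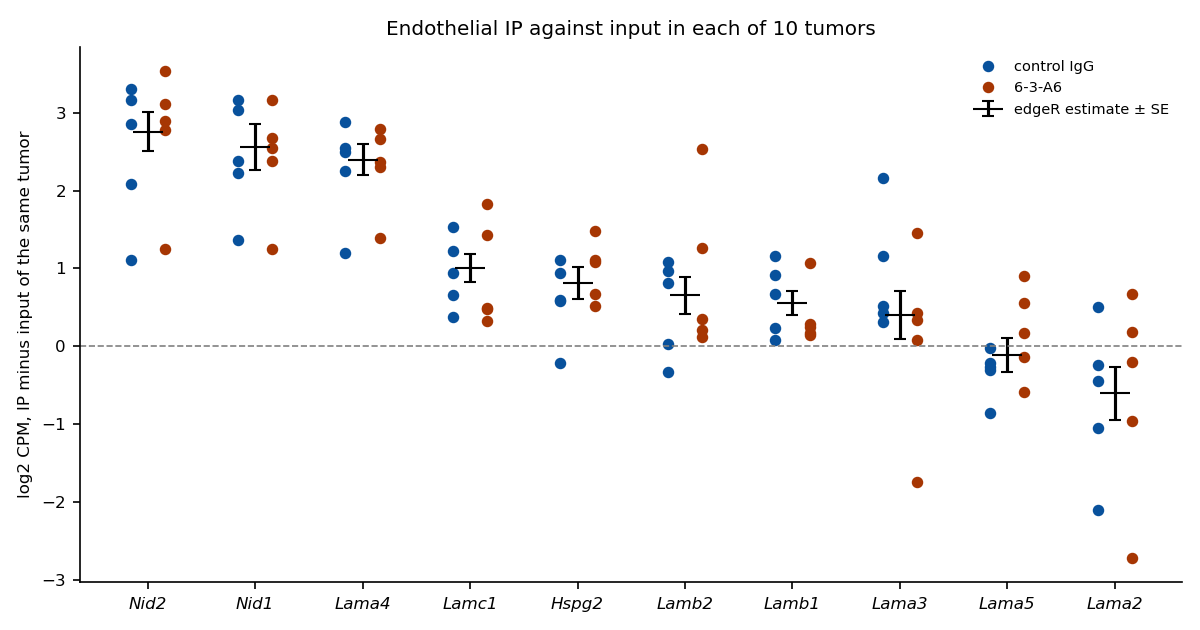
Log2 CPM in IP minus input of the same tumor (vertical axis) for each gene, with 1 point per tumor (blue, control IgG; brown, 6-3-A6) and the edgeR estimate with its standard error over 20 libraries in black. All 10 tumors lie above 0 for Nid2, Nid1, Lama4, Lamc1 and Lamb1, while those of Lama5 and Lama2 lie on both sides.

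Among the alpha chains, Lama4 was the one called higher in IP over all 20 libraries. In control IgG IP 1 to 5 it was at 144, 128, 140, 46.0 and 100 CPM, and in the inputs of the same tumors at 24.6, 22.6, 18.8, 19.9 and 20.9 CPM. In 6-3-A6 IP 1 to 5 it was at 118, 44.2, 96.9, 124 and 147 CPM, and in the inputs at 23.9, 16.7, 18.7, 19.5 and 21.1 CPM. Every IP library thus lay above every input library, and the lowest IP values came from the pair of libraries low in endothelial content. The log2 fold change was 2.40 ± 0.20 (SE, adjusted p = 3.31e-09, edgeR). Lama4, Lamc1 and Nid2 were the genes among the 10 whose 10 IP and 10 input libraries did not overlap, which held for 4.97% of all genes tested.

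Lama5, the other vascular alpha chain, did not pass the test. It was at 31.2, 40.3, 31.9, 37.9 and 54.0 CPM in control IgG IP 1 to 5 and at 38.6, 48.6, 57.7, 43.9 and 55.0 CPM in the inputs. With 6-3-A6 it was at 36.2, 56.7, 35.5, 21.1 and 25.0 CPM in IP and at 54.5, 38.7, 31.6, 11.2 and 27.5 CPM in input. IP and input overlapped in both treatment groups, and the lowest value was that of 6-3-A6 input 4. By tumor, Lama5 was lower in IP in 5 of 5 with control IgG, and higher in 3 and lower in 2 with 6-3-A6. The log2 fold change was -0.12 ± 0.21 (SE, adjusted p = 0.688, edgeR), with a 95% interval from -0.56 to 0.33. The IP over input difference of Lama4 exceeded that of Lama5 in 10 of 10 tumors, by a median of 2.52 on the log2 scale.

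Lama2 and Lama3 had the lowest mean CPM of the 10 genes in each group, at 14 to 147 and 8 to 109 counts per library. In 6-3-A6 input 4, however, Lamb2 (3.44 CPM) lay below both, and Lama5 (11.2 CPM) and Nid2 (12.1 CPM) below Lama2. Lama2 ranged from 0.765 to 6.15 CPM in IP and from 2.64 to 15.2 CPM in input, with a log2 fold change of -0.61 ± 0.34 (SE, adjusted p = 0.149, edgeR). Lama3 ranged from 1.73 to 4.29 CPM in IP and from 0.684 to 7.63 CPM in input, with a log2 fold change of 0.40 ± 0.31 (SE, adjusted p = 0.299, edgeR). Both highest input values came from 6-3-A6 input 4. Without tumor 4 of the 6-3-A6 group, Lama3 was called higher in IP, at 0.81 (adjusted p = 0.00632, edgeR), and Lama2 was at -0.21 (adjusted p = 0.585). Lama3 was higher in IP in 9 of 10 tumors, the exception being that tumor.

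The partner chains showed smaller differences. Lamc1, the gamma chain of most laminins, was at 548, 598, 299, 244 and 429 CPM in control IgG IP 1 to 5 and at 235, 206, 189, 188 and 223 CPM in the inputs. With 6-3-A6 it was at 318, 238, 252, 364 and 617 CPM in IP and at 228, 190, 179, 135 and 174 CPM in input. IP lay above input throughout, with a log2 fold change of 1.00 ± 0.18 (SE, adjusted p = 0.000154, edgeR). Lamb1, the widely expressed beta chain, was at 714, 863, 397, 366 and 567 CPM in control IgG IP 1 to 5 and between 338 and 387 CPM in the inputs. In 6-3-A6 IP 1 to 5 it was at 402, 423, 310, 333 and 596 CPM, with inputs between 280 and 346 CPM. It was higher in IP in 10 of 10 tumors although the ranges overlapped, and its log2 fold change was 0.55 ± 0.15 (SE, adjusted p = 0.00654, edgeR). With only the tumors that the study kept after principal component analysis, it was at 0.46 and not called (adjusted p = 0.108, edgeR).

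Lamb2, a beta chain known from vessel walls, kidney filters and nerve endings, ranged from 17.1 to 45.5 CPM in IP and from 3.44 to 26.1 CPM in input. Its log2 fold change was 0.65 ± 0.24 (SE, adjusted p = 0.0336, edgeR), and it was higher in IP in 9 of 10 tumors. This call was lost when tumor 1, 2 or 5 of the control IgG group or tumor 5 of the 6-3-A6 group was left out, with adjusted p values of 0.0675, 0.0814, 0.0607 and 0.0760. The lowest input value was again that of 6-3-A6 input 4, and the call held without that tumor at 0.59 (adjusted p = 0.0155).

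Both nidogens rose. Nid1 was at 517, 398, 325, 108 and 186 CPM in control IgG IP 1 to 5 and at 99.6, 48.6, 36.2, 42.1 and 39.5 CPM in the inputs. With 6-3-A6 it was at 277, 68.4, 217, 270 and 420 CPM in IP and at 47.2, 28.8, 41.7, 42.3 and 46.6 CPM in input. The groups did not overlap within either treatment, and over all libraries only 6-3-A6 IP 2 fell below the highest input, control IgG input 1. The log2 fold change of Nid1 was 2.56 ± 0.29 (SE, adjusted p = 5.14e-07, edgeR).

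Nid2 was at 196, 177, 186, 49.2 and 112 CPM in control IgG IP 1 to 5 and at 21.8, 24.3, 18.7, 22.7 and 26.4 CPM in the inputs. With 6-3-A6 it was at 157, 39.1, 142, 142 and 190 CPM in IP and at 22.7, 16.4, 19.0, 12.1 and 22.0 CPM in input. All IP libraries lay above all inputs, and the log2 fold change was 2.76 ± 0.25 (SE, adjusted p = 1.35e-08, edgeR). Among the 13582 genes tested, 2.38% had a larger log2 fold change than Nid2, 2.64% than Nid1 and 2.93% than Lama4.

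Hspg2 was at 376, 424, 289, 169 and 418 CPM in control IgG IP 1 to 5 and at 252, 196, 191, 196 and 219 CPM in the inputs. With 6-3-A6 it was at 328, 466, 211, 203 and 470 CPM in IP and at 206, 215, 147, 72.8 and 223 CPM in input. It was higher in IP in 9 of 10 tumors, the exception being control IgG tumor 4, and the groups overlapped. The log2 fold change was 0.81 ± 0.21 (SE, adjusted p = 0.00420, edgeR).

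**Figure D2:**
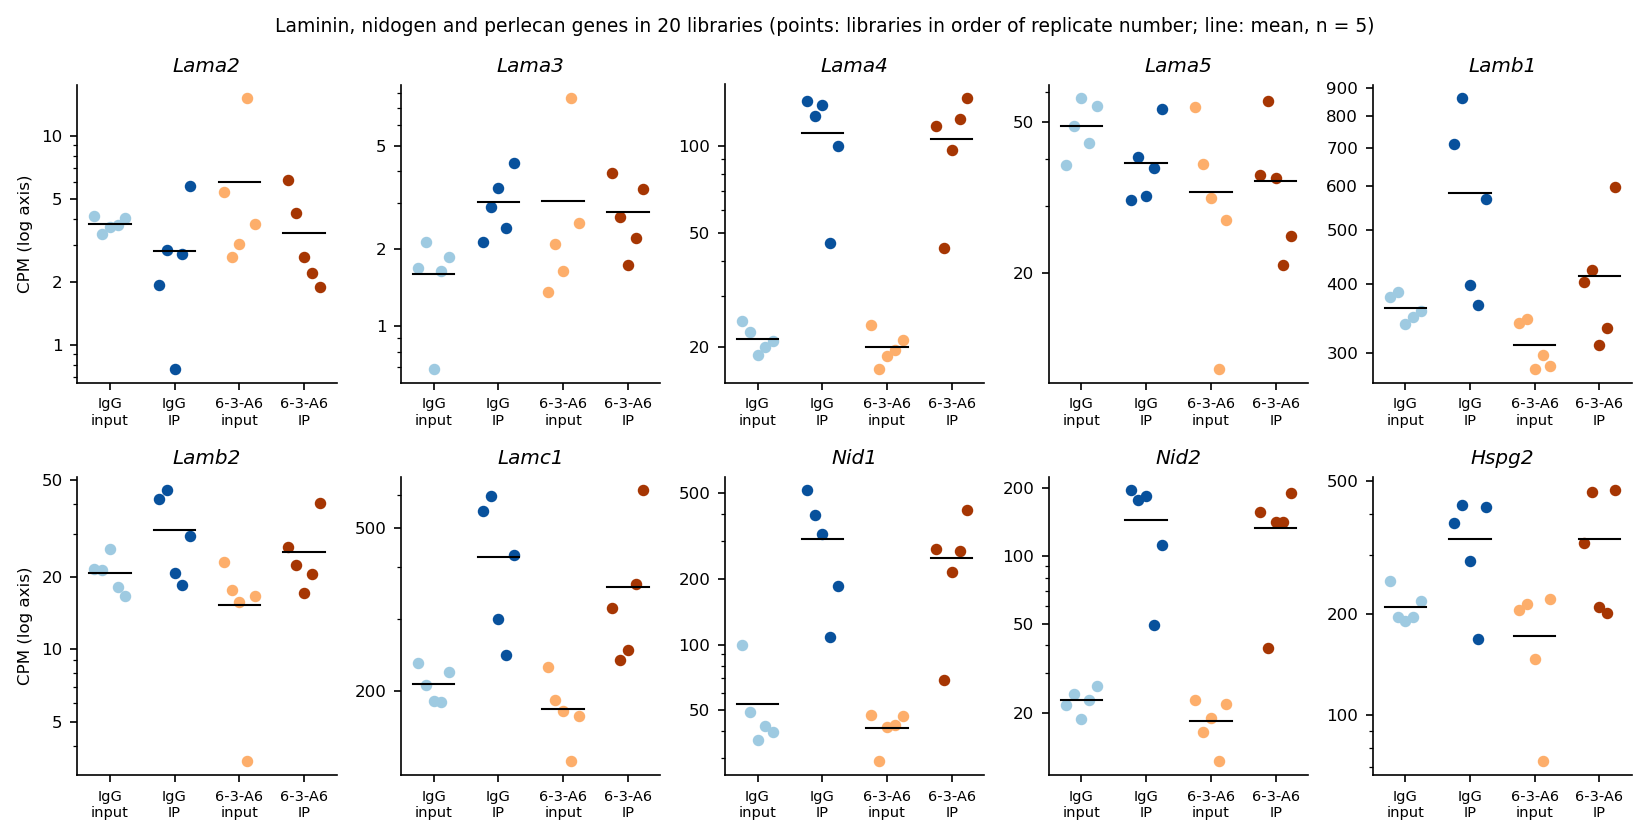
CPM (log axes) of the 10 genes in the 5 libraries of each group, with points in order of replicate number and a line at the mean. IP and input separate fully for Lama4, Lamc1 and Nid2, and the single high points of Lama2 and Lama3 in 6-3-A6 input are replicate 4.

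Markers of other cells were measured in the same comparison. Of the macrophage list, 0 of 12 tested markers rose and 8 fell, and of the fibroblast list 0 of 10 rose and 5 fell. Summed over the list, fibroblast markers still ranged from 500 to 2855 CPM in control IgG IP and from 596 to 2381 CPM in 6-3-A6 IP, against 857 to 4205 CPM and 936 to 2150 CPM in the inputs. Of 9 mural markers, Kcnj8 and Abcc9 rose and Des fell, and the list summed to 184 to 423 CPM over the IP libraries and 138 to 257 CPM over the inputs. The part of fibroblast and mural RNA in the values above was not tested, and in such bulk samples fewer cells of a type and less RNA per cell cannot be told apart.

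Levels were then compared between genes per kilobase of the longest protein-coding transcript, which is shorter than the span over which reads were counted. In control IgG input the order of mean CPM per kilobase was Lamb1 (62.5 ± 3.6, SD, n = 5), Lamc1 (27.3 ± 2.7), Hspg2 (14.9 ± 1.8), Nid1 (8.73 ± 4.3) and Nid2 (4.67 ± 0.59). Lama5 (4.28 ± 0.69), Lamb2 (3.68 ± 0.64) and Lama4 (3.54 ± 0.38) followed with overlapping ranges, then Lama2 (0.395 ± 0.031) and Lama3 (0.151 ± 0.052). In control IgG IP, Nid1 and Nid2 stood ahead of Hspg2, and Lama4 ahead of Lamb2 and Lama5. The means there were 101 ± 36 for Lamb1, 55.6 ± 20 for Lamc1, 50.4 ± 27 for Nid1, 29.5 ± 13 for Nid2 and 23.6 ± 7.6 for Hspg2. Lama4 (18.5 ± 6.7), Lamb2 (5.54 ± 2.2), Lama5 (3.43 ± 0.81), Lama2 (0.292 ± 0.19) and Lama3 (0.287 ± 0.082) came after them. In these IP libraries the ranges of all neighbors overlapped except Lama5 and Lama2. The order in 6-3-A6 IP was the same, with Lama4 at 17.6 ± 6.5 and Lama5 at 3.07 ± 1.2. In 6-3-A6 input it differed from control IgG input in that Lama4 (3.31 ± 0.45) came ahead of Lama5 (2.87 ± 1.4) and Lamb2 (2.72 ± 1.3), with overlapping ranges. Without 6-3-A6 input 4 these genes were at 3.33 ± 0.52 for Lama4, 3.34 ± 1.05 for Lama5 and 3.25 ± 0.58 for Lamb2 (n = 4), so that Lama5 was again marginally ahead of Lama4, while Lama4 stayed ahead of Lamb2. The order between genes also depended on the length used, since reads were counted over introns too. Per kilobase of the whole counted span, Lama4 and Lama5 were at 0.771 ± 0.28 and 0.789 ± 0.19 CPM in control IgG IP. In 6-3-A6 IP they were at 0.734 ± 0.27 and 0.705 ± 0.28 CPM. Lamb2 was at 2.89 ± 1.1 CPM in control IgG IP and 2.35 ± 0.84 CPM in 6-3-A6 IP on that scale. It thus stood ahead of Lama4 and Nid2, and Hspg2 ahead of Nid2, in both IP groups. In control IgG input, Lamb2 (1.92 ± 0.34) came ahead of Lamc1 (1.83 ± 0.18), and Lama5 (0.985 ± 0.16) ahead of Nid1 (0.712 ± 0.35).

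Shares within the alpha chain family differed between fractions. Of the summed alpha chain level per kilobase, Lama4 held 42.0% ± 5.2 (SD, n = 5) in control IgG input and 79.9% ± 9.5 in control IgG IP. With 6-3-A6 its share was 45.5% ± 4.7 in input and 79.8% ± 14 in IP. Lama5 held 50.5% ± 6.4 and 16.96% ± 8.0 in input and IP of control IgG, and 38.8% ± 15 and 16.7% ± 12 with 6-3-A6. The lowest Lama4 share among the 10 IP libraries, 55.8%, was above the highest among the 10 inputs, 52.5%. With the summed length of all exons in place of the longest transcript, the Lama4 share was 27.4% in control IgG input and 68.0% in control IgG IP, and the Lama5 share 65.4% and 27.9%. With 6-3-A6 these shares were 31.1% and 68.9% for Lama4 and 52.0% and 26.7% for Lama5. Without control IgG IP 4, 6-3-A6 IP 2 and 6-3-A6 input 4, which leaves n = 4 in each of these groups, Lama4 held 83.3% ± 6.4 of control IgG IP, 85.8% ± 4.6 of 6-3-A6 IP and 45.9% ± 5.4 of 6-3-A6 input. Lama5 then held 13.96% ± 5.1, 11.4% ± 3.9 and 45.2% ± 6.9. Per kilobase of the whole counted span, with all libraries, Lama4 held 13.1% ± 2.8 of control IgG input, 47.6% ± 14 of control IgG IP, 18.1% ± 6.5 of 6-3-A6 input and 50.4% ± 19 of 6-3-A6 IP. Lama5 held 85.2%, 51.0%, 75.3% and 48.1% on that scale, and the Lama4 shares of IP (lowest 20.7%) and input (highest 28.2%) overlapped. The size of each share thus depended on the length used. The mean share of Lama4 was higher in IP than in input under each of the 3 lengths. A fixed length does not change the IP over input ratio of a gene, so this agreement adds nothing to those ratios. Nid1 held 63.0% ± 9.1 of the nidogen level in control IgG input and 62.3% ± 4.5 in control IgG IP, a difference smaller than the spread between libraries. With 6-3-A6 it held 64.2% ± 5.6 in input and 59.3% ± 3.2 in IP, and was lower in IP in 4 of 5 tumors, against 2 of 5 with control IgG. Without 6-3-A6 input 4 the share in 6-3-A6 input was 61.9% ± 2.3 (n = 4), and these shares were not tested.

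**Figure D3:**
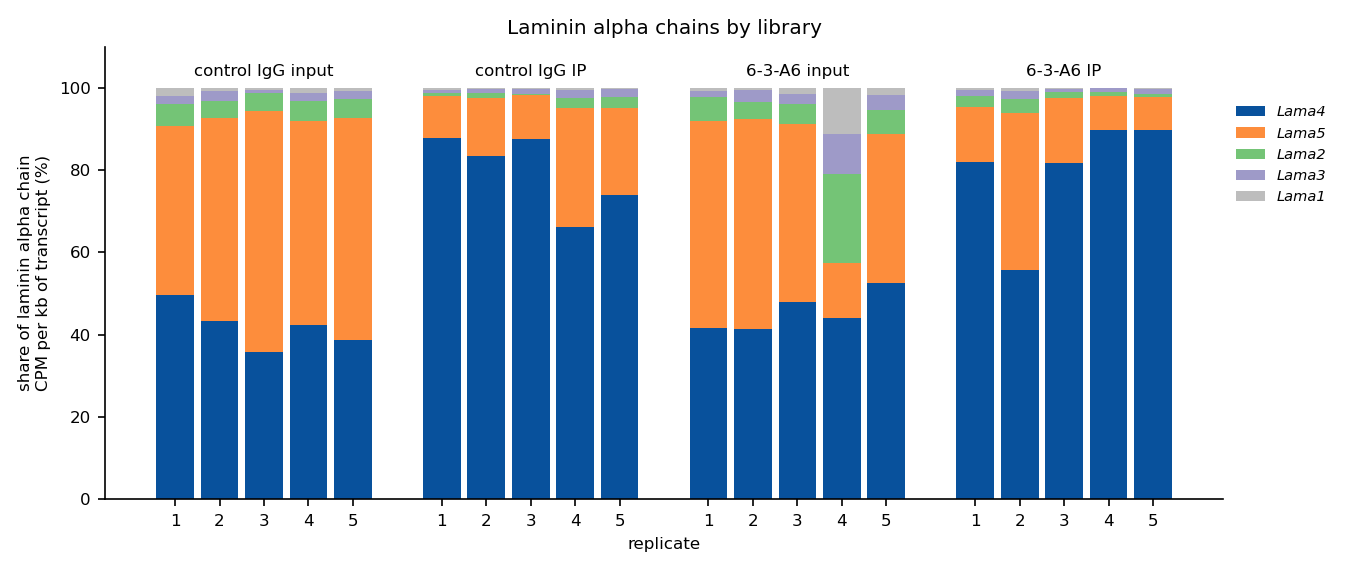
Share (%) of each laminin alpha chain in the summed alpha chain CPM per kilobase of transcript, with 1 bar per library and replicates 1 to 5 in each group. Lama4 (blue) holds 35.9% to 52.5% of the inputs and 55.8% to 89.9% of the IP libraries, and 6-3-A6 input 4 has large shares of Lama2, Lama3 and Lama1.

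The laminin chains Lama1, Lamb3 and Lamc3, outside the 10 genes, were low. Mean levels in control IgG IP were 0.698 CPM for Lama1, 1.32 for Lamb3 and 0.716 for Lamc3, and 0 of these 3 genes were called in IP against input. Of 13 basement membrane partners, 11 could be tested, of which 5 rose and 3 fell. Over all genes tested, 19.8% were called higher and 21.4% lower, and these shares also apply to the receptors below. Col15a1, a collagen of vascular and muscle basement membranes, had a log2 fold change of 2.43 ± 0.33, Col4a2, a chain of the common collagen IV trimer, 2.01 ± 0.22, and Sparc, a collagen-binding matrix protein, 1.93 ± 0.30 (SE, adjusted p = 6.75e-06, 3.00e-07 and 2.61e-05, edgeR). Ntn4, a netrin that binds laminin, fell by 1.08 on the log2 scale, and the collagen IV chains Col4a5 and Col4a6 fell by 0.76 and 0.70 (adjusted p = 0.000240, 0.0264 and 0.0297, edgeR). Of 9 laminin and perlecan receptors, Bcam, which binds the alpha5 chain, rose by 3.68 ± 0.36 and the integrin subunit Itga1 by 1.12 ± 0.18. Dag1, which encodes dystroglycan, fell by 0.33 (adjusted p = 0.0411, edgeR).

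Within each treatment group, 5 of the 10 genes were called higher in IP. In control IgG these were Lama4, Lamb1, Lamc1, Nid1 and Nid2, with 11.4% of the 14488 genes tested called, 8.28% higher and 3.1% lower. In 6-3-A6 they were Lama4, Lamc1, Nid1, Nid2 and Hspg2, with 26.3% of the genes called, 12.8% higher and 13.5% lower. The log2 fold changes in control IgG and 6-3-A6 were 2.39 and 2.42 for Lama4, 2.53 and 2.61 for Nid1, 2.66 and 2.87 for Nid2, and 1.03 and 0.99 for Lamc1. Lamb1 was at 0.69 ± 0.22 (adjusted p = 0.0423) and 0.43 ± 0.22 (adjusted p = 0.146), and Hspg2 at 0.67 ± 0.30 (adjusted p = 0.159) and 0.96 ± 0.30 (adjusted p = 0.0236, edgeR).

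Whether these ratios differed between treatments was tested directly. The interaction of treatment and fraction was called for 0 of the 10 genes and for 0 of 14488 genes by edgeR (0%), and 125 had an unadjusted p under 0.05. DESeq2 also called 0 genes. Among the 10 genes it was farthest from 0 for Lama3, at -1.01 with a 95% interval from -2.21 to 0.20 (IP over input 0.92 in control IgG and -0.08 in 6-3-A6), and was -0.29 without 6-3-A6 tumor 4. Next was Lama5 at 0.41, with an interval from -0.49 to 1.31 (-0.32 and 0.10), which was 0.33 without that tumor and 0.098 without the 3 tumors named above. The interaction was -0.26 for Lamb1, with a 95% interval from -0.90 to 0.37, and 0.29 for Hspg2, with an interval from -0.59 to 1.18. Intervals of this width leave room for differences of over 1.5-fold. The Lamb1 call in control IgG held when control IgG tumor 4, 6-3-A6 tumor 4 or 6-3-A6 tumor 5 was left out and was lost when any of the other 7 tumors was, with adjusted p values from 0.0521 to 0.215. It was also lost without the filter on low counts (0.75, adjusted p = 0.0605, edgeR). Without control IgG tumor 1 or 2, Lamc1 was also lost there (adjusted p = 0.0550 and 0.0920), which left 3 genes called, and Hspg2 in 6-3-A6 was lost without 6-3-A6 tumor 2 (adjusted p = 0.0586). With the tumor as a block, Hspg2 was called in control IgG as well (0.61, adjusted p = 0.0379, edgeR).

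Endothelial content varied among the IP libraries, and the genes differed in how they varied with it. The libraries with the lowest endothelial list level, 6-3-A6 IP 2 and control IgG IP 4, were also the lowest pair for Lama4, Lamc1, Nid1 and Nid2. For Lamc1 the margin was small, at 238 and 244 CPM against 252 CPM in 6-3-A6 IP 3. For Lama2, Lama3, Lama5 and Lamb1, neither was among the lowest pair, and Lama5 had its highest IP value, 56.7 CPM, in 6-3-A6 IP 2. Hspg2 had its lowest IP value in control IgG IP 4 (169 CPM) and a value near its highest in 6-3-A6 IP 2 (466 CPM).

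**Figure D4:**
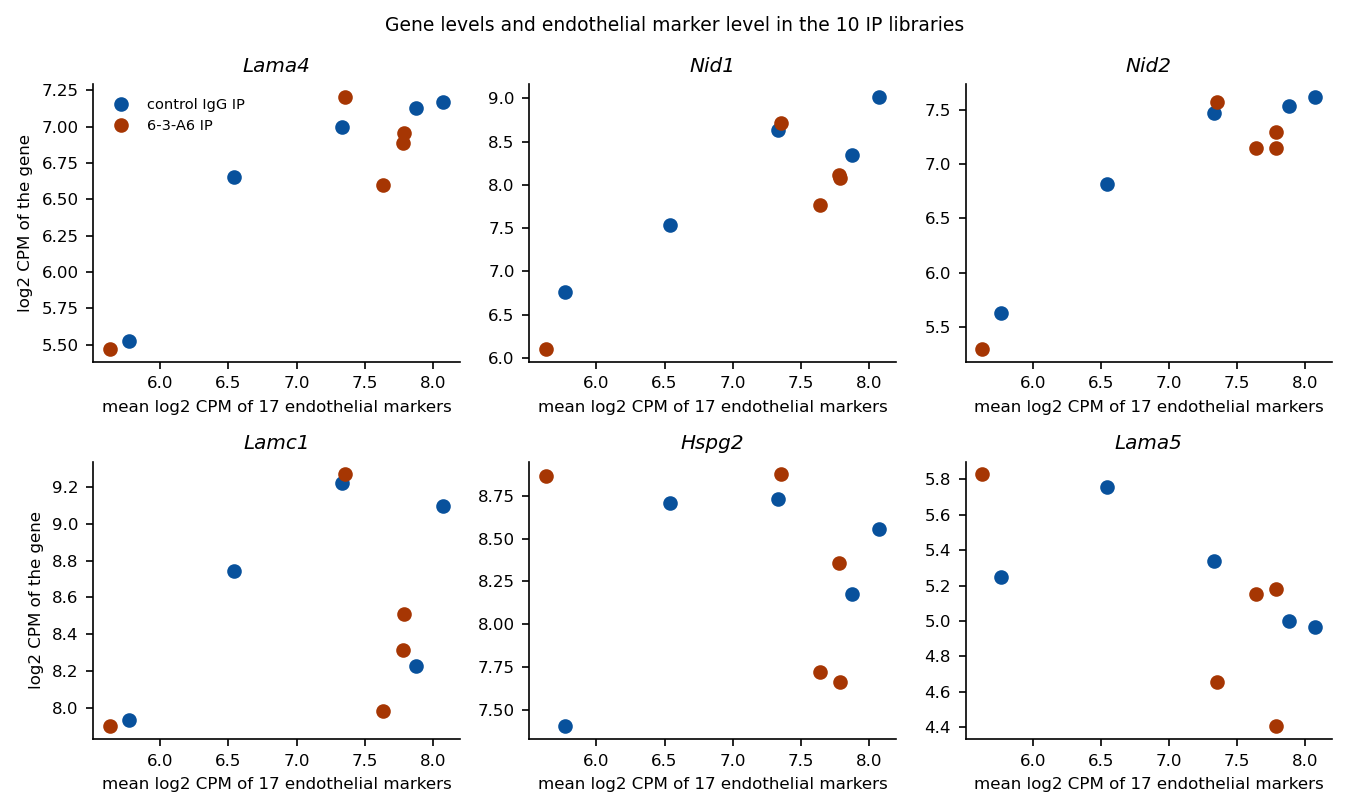
Log2 CPM of 6 genes (vertical axes) against the mean log2 CPM of 17 endothelial markers (horizontal axes) in the 10 IP libraries, with 1 point per library. The points for Lama4, Nid1 and Nid2 are lowest where the marker level is lowest, while Lama5 shows no such fall.

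The genes most like each of the 10 over the 20 libraries were found by Pearson's r of log2 CPM, given as a description since the libraries share fraction and tumor. Lama4 was closest to Mmrn2 (r = 0.99) and Mcam (r = 0.99), Nid2 to Lama4 (r = 0.99) and Mmrn2 (r = 0.99), and Nid1 to Serpinh1 (r = 0.99) and Mcam (r = 0.98). Mmrn2 encodes an endothelial matrix protein, Mcam an adhesion molecule of endothelial and mural cells, and Serpinh1 a collagen chaperone. Lamb1 was closest to Lamc1 (r = 0.88) and Egr3 (r = 0.85), and Lamc1 to Ikbkb (r = 0.94) and Adamts4 (r = 0.92). Hspg2 was closest to Cdc42bpg (r = 0.96) and Pwp2 (r = 0.93), Lamb2 to Ltbp4 (r = 0.94) and Coasy (r = 0.92), and Lama5 to Ano8 (r = 0.89) and Pkd1 (r = 0.88). For the low genes Lama2 and Lama3 the closest were Clk4 (r = 0.81) and Ptbp2 (r = 0.76), and Cog7 (r = 0.86) and Ints13 (r = 0.83). The leading group of Lama4, Nid1 and Nid2 thus shared neighbors that the other genes did not have among their nearest 2.

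To determine whether Notch4 blockade changed these genes in tumor endothelium, 6-3-A6 IP was compared with control IgG IP. None of the 10 genes was called over the 5 against 5 IP libraries, where edgeR called 0 of 13602 genes (0%), and 292 had an unadjusted p under 0.05, while DESeq2 called 0 genes. Log2 fold changes of 6-3-A6 over control IgG ran from -0.50 for Lamb1 to 0.25 for Lama2, and the groups overlapped for all 10 genes. Lama4 was at 106 ± 39 CPM (SD, n = 5) with 6-3-A6 and 111.6 ± 40 CPM with control IgG. The 95% interval of its log2 fold change ran from -0.81 to 0.65. Nid1 was at 251 ± 127 against 307 ± 163 CPM and Nid2 at 134 ± 57 against 144 ± 62 CPM. Lamb1 was at 413 ± 113 against 581 ± 211 CPM, with an interval of the log2 fold change from -1.09 to 0.10. Without 6-3-A6 IP 2 the log2 fold changes of Lama4 and Nid2 were positive (0.12 for both, from -0.08 and -0.11 over all libraries), Nid1 was at -0.05 (from -0.29) and Lamb1 at -0.51. Without control IgG IP 4 they were -0.27 for Lama4, -0.32 for Nid2, -0.50 for Nid1 and -0.61 for Lamb1, and none of these was called.

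In the 6 IP libraries that the study kept after principal component analysis, 3 per treatment, edgeR called 4.61% of 13999 genes, 2.57% higher and 2.04% lower, and again none of the 10. Of all genes tested, 360 rose and 286 fell, against 5 and 4 without 6-3-A6 IP 3. Since the libraries were kept after their values had been seen, these p values are not independent of that choice. Lamb1 was at 402, 310 and 333 CPM with 6-3-A6 (IP 1, 3 and 4) and at 863, 366 and 567 CPM with control IgG (IP 2, 4 and 5). The groups overlapped, and the log2 fold change was -0.81 ± 0.30 (SE, adjusted p = 0.164, edgeR). Without the filter on low counts, Lamb1 was called lower (-0.79, adjusted p = 0.0464). Lama5 was at 36.2, 35.5 and 21.1 CPM with 6-3-A6 and at 40.3, 37.9 and 54.0 CPM with control IgG. Its groups did not overlap, as for 24.2% of all genes, and the log2 fold change was -0.54 ± 0.24 (SE, adjusted p = 0.255, edgeR).

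Lama4 (0.28), Nid1 (0.12) and Nid2 (0.35) had positive log2 fold changes in these 6 libraries and the other 7 genes negative ones. The summed endothelial list was at 5097 to 6401 CPM in the kept 6-3-A6 libraries and 1565 to 5018 CPM in the kept control IgG libraries, and 6 of its 17 markers were called higher. The summed macrophage list was at 3232 to 3872 and 6540 to 7662 CPM, with 6 of 12 markers called lower and Itgam at 0 counts in all libraries. The summed fibroblast list was at 596 to 1274 and 1247 to 2676 CPM, with 2 of 10 markers called lower, and the epithelial list was at 168 to 232 and 318 to 386 CPM, with 2 of 6 called lower. The summed mural list was at 260 to 398 and 207 to 341 CPM, with 1 of 9 markers called higher and 1 lower. The part of these differences in the values of the 10 genes was not tested. Without control IgG IP 4, Lama4 was at -0.01, Nid1 at -0.20 and Nid2 at 0.02, and Lamb1 was at -1.03 (adjusted p = 0.0733, edgeR). Among the basement membrane partners, Col18a1, which holds the endostatin fragment, was called lower (-0.85 ± 0.18, SE, adjusted p = 0.0304, edgeR), and 11 of 12 tested partners and all 9 receptors were not called.

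In the whole tumor, the input libraries gave 0 of 10 genes and 0 of 13683 genes called (0%, edgeR), where 180 had an unadjusted p under 0.05 and DESeq2 called 0. Lama4 was at 19.98 ± 2.7 CPM (SD, n = 5) with 6-3-A6 and 21.4 ± 2.3 CPM with control IgG, Nid2 at 18.4 ± 4.3 and 22.8 ± 2.9 CPM, and Lamb1 at 310 ± 31 and 361 ± 21 CPM. The groups overlapped for all 10 genes. Lama3 had the largest log2 fold change, 0.86 ± 0.48 (SE, adjusted p = 1.00, edgeR), and was at 0.23 without 6-3-A6 input 4. Lama2 was at 0.60 with that library and -0.04 without it. Lama5 had the lowest, -0.58 ± 0.33 (SE, adjusted p = 1.00, edgeR), and was at -0.36 without that library.

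**Figure D5:**
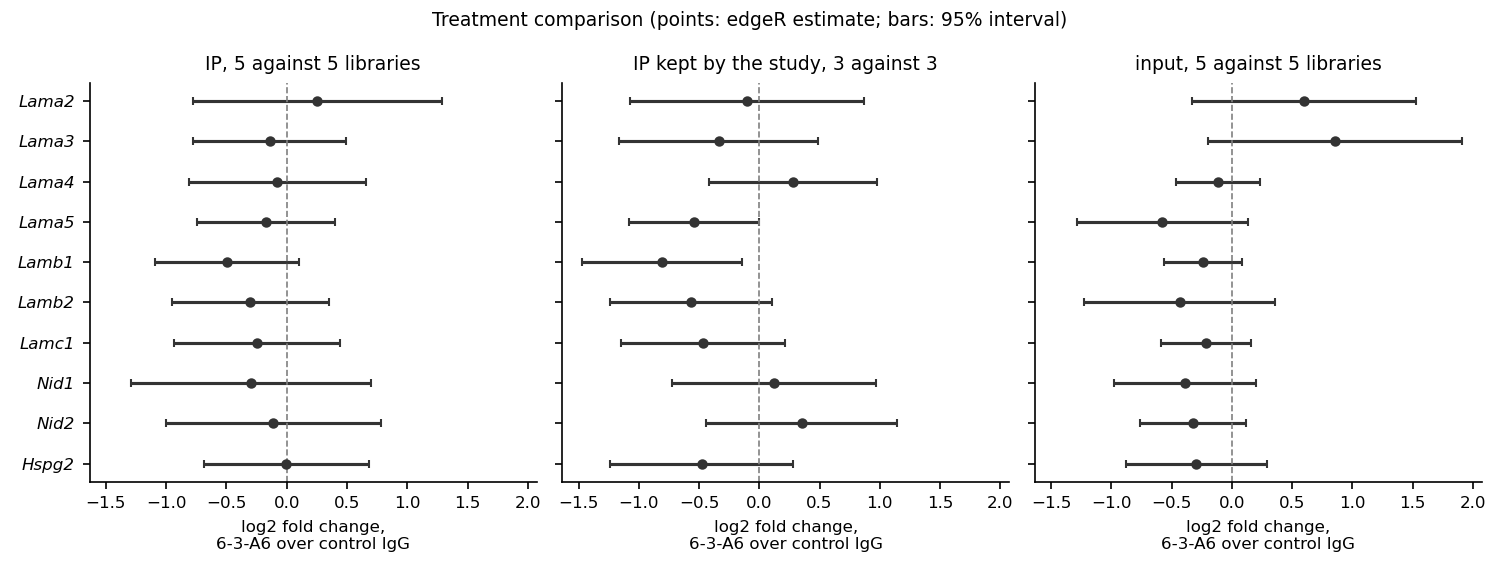
Log2 fold change of 6-3-A6 over control IgG (horizontal axes) with its 95% interval for each gene in all IP libraries, in the 6 IP libraries that the study kept and in input. All intervals for the full IP set and for input include 0, and in the kept libraries those of Lamb1 and Lama5 do not, with adjusted p values of 0.164 and 0.255.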

How the data were processed

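Input and IP libraries of 10 Py8119 tumors gave single-read data. Alignment by the authors used STAR (2.7.4a), and they deposited raw counts per gene from featureCounts (2.0.1 in the methods, with 1.5.2 also in the submitters' processing notes). The methods name mm10, whereas the count table has GRCm39 positions. Strandedness and the handling of overlapping genes are not given in the sources used here. A second table, deposited by the authors, holds for 6 IP libraries a signal equal to raw counts divided by 1 constant per library, and was used only to identify the libraries kept. Its columns of the authors' own comparison (mean, log2 fold change, standard error, statistic, p value and adjusted p value) were not used.

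Groups followed the sample titles, in which replicates are numbered tumors, and the labels give no batch. The descriptions of the 6-3-A6 samples name the opposite fraction, and Pecam1 and Cdh5 levels fit the titles. Counts were tested with edgeR 4.0.16 in R 4.3.3 (TMM, filterByExpr, quasi-likelihood F test, Benjamini-Hochberg over all genes tested, threshold 0.05). IP against input had the treatment as a term, and the treatment comparisons had the condition alone. All 10 genes passed the filter in every comparison. Values are CPM scaled by TMM factors, with a prior count of 2 for log2 values. The alternatives were DESeq2 1.42.0, RLE normalization, no filter, the replicate block, the tumors kept by the study and each replicate left out. The pipeline was tested on simulated counts. Totals were 11881214 to 26728205 counts per library, no count of the 10 genes was 0 (lowest 8), and counting limits cover counting error only.

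The named genes were all 10, 3 other laminin chains, up to 3 of the largest and 3 of the smallest called changes in each partner or receptor list, and the 2 genes most like each of the 10 with a mean log2 CPM of at least 4. The 10 genes and the lists were chosen with earlier results of these data known. Marker lists not named in the report were lymphoid, adipocyte, skeletal muscle and Schwann, with 0 of 6, 4, 4 and 2 tested markers called higher in IP and 3, 0, 2 and 1 called lower, and the epithelial list had 0 of 6 higher and 2 lower. Input and IP of 1 tumor deviated together, with r over 0.1, in 8 of 10 tumors (r from -0.06 to 0.73, median 0.40), and this pairing comes from the tumor number in the titles. Tumors with the same number in both treatments share only the number.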

Additional observations from a re-analysis of the deposited data

Results flagged for a closer look

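Among 40 groups of 5 libraries (10 genes in 4 groups), 3 held a library far from the other 4, and in 2 of these it was 6-3-A6 input 4. The rule used sets apart about 1 in 20 groups of independent values with a normal spread. The genes share libraries, and the rate by chance in these data was not measured. Lama2 was at 15.2 CPM in 6-3-A6 input 4, against 2.64 to 5.39 CPM in the other 4 libraries. Lama3 was at 7.63 CPM in the same library, against 1.36 to 2.50 CPM. This library also had 38.2% of its counts on mitochondrial genes, and the part of its RNA quality in these values was not tested. Nid1 was at 99.6 CPM in control IgG input 1, against 36.2 to 48.6 CPM in the other 4. The mean log2 CPM of the fibroblast list was highest among the inputs in that library, at 6.25, and its part in the Nid1 value was not tested.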

How the results depend on the processing

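Of 1020 values of single genes under the alternatives, 937 kept their direction and their side of the threshold, 21 lost the call, 6 gained it and 56 changed sign, 0 of them called. Low counts of Lama2 and Lama3 and 5 tumors per group limit the precision.

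Of the 10 genes, 5 were called higher in control IgG, with a range from 3 to 6 when 1 tumor was left out (3 without control IgG tumor 1 or 2). With only the tumors kept by the study they were 3 in control IgG and 3 in 6-3-A6, where 596 and 1536 of all genes were called higher (1200 and 1861 with all tumors). In control IgG, Lamb1 (0.72, adjusted p = 0.217) and Lamc1 (1.04, adjusted p = 0.0894) lost their call (edgeR). In 6-3-A6, Lamc1 (0.80, adjusted p = 0.0771) and Hspg2 (0.81, adjusted p = 0.152) lost theirs (edgeR). Over both treatments, Lamb1 (0.46, adjusted p = 0.108) and Lamb2 (0.66, adjusted p = 0.156) did so (edgeR). The cause was not tested beyond the smaller number of tumors. Without the filter, 1 of the 10 genes, Lamb1, was called lower in the kept IP libraries. Leaving out control IgG tumor 4 and 6-3-A6 tumors 2 and 4 together, which was chosen after seeing the data, gave 8 of the 10 called higher over both treatments and 6 in control IgG, where 2895 and 1734 of all genes were called higher, against 2695 and 1200 with all tumors.

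Signs that changed concerned values not called. In all IP libraries Hspg2 was at 0.013 with DESeq2, 0.0059 with RLE and 0.0042 without the filter. IP over input of Lama3 in 6-3-A6 was 0.045 without the filter, 0.13 with the replicate block and 0.75 without the 3 tumors. In the tumors kept by the study, Lama2 in control IgG was at 0.030, Lama5 in 6-3-A6 at -0.067 and the interaction of Lamb2 at -0.15. With the replicate block the interaction of Lama2 was 0.069 and of Nid1 -0.014. Without the 3 tumors Lama5 in 6-3-A6 was at -0.21, and the interactions of Lama2, Lama4, Lamb2 and Hspg2 were 0.20, -0.056, -0.090 and -0.0081.

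With each replicate left out, IP over input in 6-3-A6 ranged from -1.11 to 0.037 for Lama2, -0.42 to 0.66 for Lama3 and -0.078 to 0.35 for Lama5. The interaction ranged from -0.69 to 0.43 for Lama2, -0.13 to 0.17 for Lama4, -0.078 to 0.31 for Lamb2, -0.34 to 0.13 for Lamc1, -0.14 to 0.23 for Nid1 and -0.010 to 0.40 for Nid2. In all IP libraries the treatment value ranged from -0.054 to 0.72 for Lama2, -0.29 to 0.030 for Lama3, -0.27 to 0.12 for Lama4, -0.32 to 0.12 for Nid2 and -0.17 to 0.13 for Hspg2. In the kept libraries it ranged from -0.68 to 0.36 for Lama2, -0.0085 to 0.64 for Lama4 and -0.20 to 0.81 for Nid1, and in input from -0.043 to 0.80 for Lama2.

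Counts over all genes moved more. In control IgG, 1200 genes were higher and 449 lower, against 1840 and 1409 with the replicate block, 596 and 11 in the tumors kept by the study, 148 lower without the filter, 702 lower with DESeq2 and 1002 lower without the 3 tumors. In 6-3-A6, 1950 genes were lower, against 855 without the 3 tumors. In IP against input, 2695 and 2902 became 1741 and 1606 in the tumors kept by the study. In the kept IP libraries 360 higher and 286 lower became 660 and 530 with DESeq2 and 733 and 726 without the filter, and 5 to 479 and 4 to 355 with 1 library left out, where each of the 6 moved at least 1 of both counts by over 1.5 times. Leaving out 1 tumor gave 721 to 1547 higher (775 without control IgG tumor 2, 721 without 3) and 49 to 775 lower in control IgG (139, 82, 49 and 144 without control IgG tumor 1, 2, 3 or 5 and 775 without 6-3-A6 tumor 4), and 1274 to 1973 lower in 6-3-A6 (1274 without 6-3-A6 tumor 3).

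The block by tumor changed the call of 1 value among the 10 genes, Hspg2 in control IgG. For the treatment comparisons same-numbered tumors share only a number (r from -0.20 to 0.38 in IP and -0.32 to 0.26 in input), and the block by number left 0 genes called in IP and input. No paired analysis was possible for the kept IP libraries because their groups share a single number. All other alternatives were run.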
